A study of Mus musculus with 10 samples.

Results

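The Dlk1-Dio3 cluster is a long array of microRNA genes in the imprinted region of mouse chromosome 12. Its members were taken by name from the small RNA tables, with the row of the highest mean kept for each name. This gave 97 mature microRNAs, from 49 hairpins, of 1915 mature names in all. The samples were primary neurons from the cortex of ICR mouse embryos at E14, kept in culture until DIV11. They received an adeno-associated virus, a vector that carries genes into neurons, either as a control (AAV-Control) or with the gene for GATA1, a transcription factor of red cell and platelet development (AAV-Gata1). Each condition had 1 small RNA library and 1 mRNA library, so the differences below could not be tested against replicate spread. Where a pair of values is given, AAV-Control comes first and AAV-Gata1 second. The promoter that drove Gata1, and the number of embryos or cultures behind a library, are not given in the sources used here. Chromatin profiles of the same series were not analysed here.

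In this region the noncoding RNAs Meg3, Rian and Mirg and the microRNAs are made from the maternal chromosome, while the protein-coding genes Dlk1, Rtl1 and Dio3 are made from the paternal one. The microRNAs are thought to be cut from long maternal transcripts. A group of them near Rtl1 lies antisense to it, and the group from miR-379 to miR-410 is known for roles in dendrites and synapses, where miR-134 limits the growth of spines through Limk1. Each hairpin can give a microRNA from its 5′ side (5p) and its 3′ side (3p), and bases 2 to 8 of the mature strand, the seed, do most of the pairing with target mRNAs. Many hairpins of the cluster resemble each other and are thought to have arisen by repeated duplication.

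RefSeq places 92 of the 97 mature names on chromosome 12 and 1, miR-496b, on chromosome 19, so that name meets the rule without being part of the cluster. It had no read in either library. The other 4 names, miR-485-5p, miR-376c-3p, miR-487b-3p and miR-539-3p, were placed by the other arm of their hairpin. The 48 hairpins of chromosome 12 lie at chr12:109563692-109743795 (GRCm38.p6), a stretch of 180 kb. All but 1 are on the plus strand, and the exception, miR-299b, lies opposite miR-299a.

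The sequences below are those of RefSeq (GRCm38.p6), 5′ to 3′, with the seed in capitals. The first set shows the most abundant members, and miR-134-5p for its known role. Each has a seed of its own among them.
miR-434-3p: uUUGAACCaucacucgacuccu
miR-382-5p: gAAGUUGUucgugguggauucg
miR-127-3p: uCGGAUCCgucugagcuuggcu
miR-323-3p: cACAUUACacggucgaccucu
miR-541-5p: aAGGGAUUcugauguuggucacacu
miR-379-5p: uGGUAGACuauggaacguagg
miR-134-5p: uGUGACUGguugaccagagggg

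The second set shows members that are alike in sequence, for which reads can be hard to assign. miR-379-3p and miR-411-3p share a seed and differ by 2 edits over their length. miR-300-3p and miR-381-3p differ by 3 edits and have different seeds. The shorter miR-299b-3p is contained in miR-299a-3p.
miR-379-3p: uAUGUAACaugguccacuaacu
miR-411-3p: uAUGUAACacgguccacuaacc
miR-300-3p: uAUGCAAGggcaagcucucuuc
miR-381-3p: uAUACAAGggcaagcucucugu
miR-299a-3p: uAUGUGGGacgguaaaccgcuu
miR-299b-3p: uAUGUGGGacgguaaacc

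Seeds were otherwise diverse. The 93 members with a sequence had 86 distinct seeds. Only 7 seeds occurred in more than 1 member, covering 14 members. The most abundant shared seed, GGUAGAC, joined miR-379-5p with the rare miR-1193-5p and summed to 554.8 and 588.25 CPM, where CPM scales reads to a common library total. Seeds of 12 members also occurred in names that do not match the rule. Among these, the seed AUAUAAC of miR-410-3p (61.54 and 62.56 CPM) is that of miR-344d-3p and miR-344e-3p, which summed to 116.68 and 125.98 CPM. The seed ACACACC of miR-329-3p (43.37 and 38.04 CPM) is that of miR-362-3p, whose gene is elsewhere and which stood at 5.82 and 6.64 CPM.

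Some members shared short stretches that overlap the seed in part of them and lie beyond it in others. The stretch ACANGG occurred in 11 of 45 3p members (24.4%) and in 2.55% of the 1530 other names that had a sequence. The stretch GUUGNCC occurred in 10 of 47 5p members (21.3%) and in 1 of those 1530 (0.0654%). Both stretches were searched on the mature strand only and were chosen after the sequences had been seen. ACANGG is present in miR-323-3p, miR-379-3p, miR-411-3p and miR-381-3p above, where it overlaps the seed. GUUGNCC is present in miR-134-5p, where it lies beyond the seed.

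The third set shows 4 hairpins with both mature arms in capitals, chosen for how their reads divide between the arms. In miR-411 the arms were used about equally, in miR-541 nearly all reads came from the 5p arm, in miR-323 nearly all came from the 3p arm, and in miR-410 the rare 5p arm differed between the libraries.
miR-411: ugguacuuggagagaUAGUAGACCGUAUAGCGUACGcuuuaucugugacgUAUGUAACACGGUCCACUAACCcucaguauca
miR-541: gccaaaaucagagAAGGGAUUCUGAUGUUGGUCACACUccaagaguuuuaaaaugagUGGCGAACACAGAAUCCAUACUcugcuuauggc
miR-323: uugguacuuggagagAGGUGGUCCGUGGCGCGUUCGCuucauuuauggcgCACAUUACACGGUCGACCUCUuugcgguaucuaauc
miR-410: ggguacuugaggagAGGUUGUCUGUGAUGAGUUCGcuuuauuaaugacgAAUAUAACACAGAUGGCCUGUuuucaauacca

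Whole reads could be recovered from the CPM values. With each mature name counted once they came to 7741365 reads for AAV-Control and 6314572 for AAV-Gata1. Gata1 mRNA was listed at 0 and 2.07 FPKM (fragments scaled by transcript length and library total), which fits the labels. The cultures also held glia. Astrocyte markers were high (Gfap at 887 and 897 FPKM), beside the neuron markers Map2 (240 and 236 FPKM), Snap25 (116 and 109 FPKM) and Rbfox3 (19 and 17.5 FPKM). Tubb3, also listed as a neuron marker, had no value here. Summed microglia markers stood at 23.1 and 27.8 FPKM. Endothelial markers summed to no more than 3.09 FPKM and erythroid markers to no more than 2.74 FPKM in either library. Levels in a bulk culture do not separate fewer cells of a type from less RNA per cell.

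The cluster made up a small and nearly equal part of the microRNA reads of both libraries. Members held 233446 of the control reads, or 3.02% (95% exact Clopper-Pearson interval 3.00 to 3.03%). They held 195706 of the Gata1 reads, or 3.1% (3.09 to 3.11%). Summed CPM was 14933 and 15478, a ratio of 1.04 (1.03 to 1.04). All intervals here reflect the counting error of reads alone. PCR copies are not separate molecules, so the intervals may be too narrow even for that. The intervals compare the reads of these libraries, not the conditions.

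Of the 97 members, 88 had a read in at least 1 library and 74 had at least 20 reads over both. Another 14 had fewer than 20 reads. The remaining 9 had none, which allows levels of up to 0.192 and 0.237 CPM (3 reads). They were miR-376c-5p, miR-494-5p, miR-496a-5p, miR-496b, miR-539-3p, miR-654-3p, miR-654-5p, miR-665-5p and miR-758-5p.

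A few members carried most of the reads. The 5 most abundant held 63.2% and 64.4% of the cluster's reads, and the 12 most abundant held 85.9% in both. The highest was miR-434-3p, which lies antisense to Rtl1, at 2302.95 and 2401.61 CPM. It ranked 27th of all mature names by mean CPM. miR-487b-3p, in the miR-379 to miR-410 group, stood at 2203.03 and 2196.62 CPM. miR-382-5p of the same group stood at 1969.22 and 2095.79 CPM. miR-127-3p, another Rtl1 antisense microRNA, stood at 1694.41 and 1807.99 CPM, and miR-323-3p at 1275.48 and 1465.55 CPM. The order of these 5 was the same in both libraries. The level then dropped to 708.65 and 656.50 CPM for miR-541-5p and 554.61 and 587.93 CPM for miR-379-5p. The rest of the 12 were miR-409-3p, miR-382-3p, miR-433-3p, miR-369-3p and miR-543-3p, between 345.75 and 531.38 CPM in either library. Some members known for roles in neurons were not among the 12 most abundant. miR-134-5p stood at 39.72 and 37.01 CPM and miR-485-5p, linked to the vesicle protein gene Sv2a, at 133.31 and 129.54 CPM. miR-329-3p stood at 43.37 and 38.04 CPM.

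**Figure D1:**
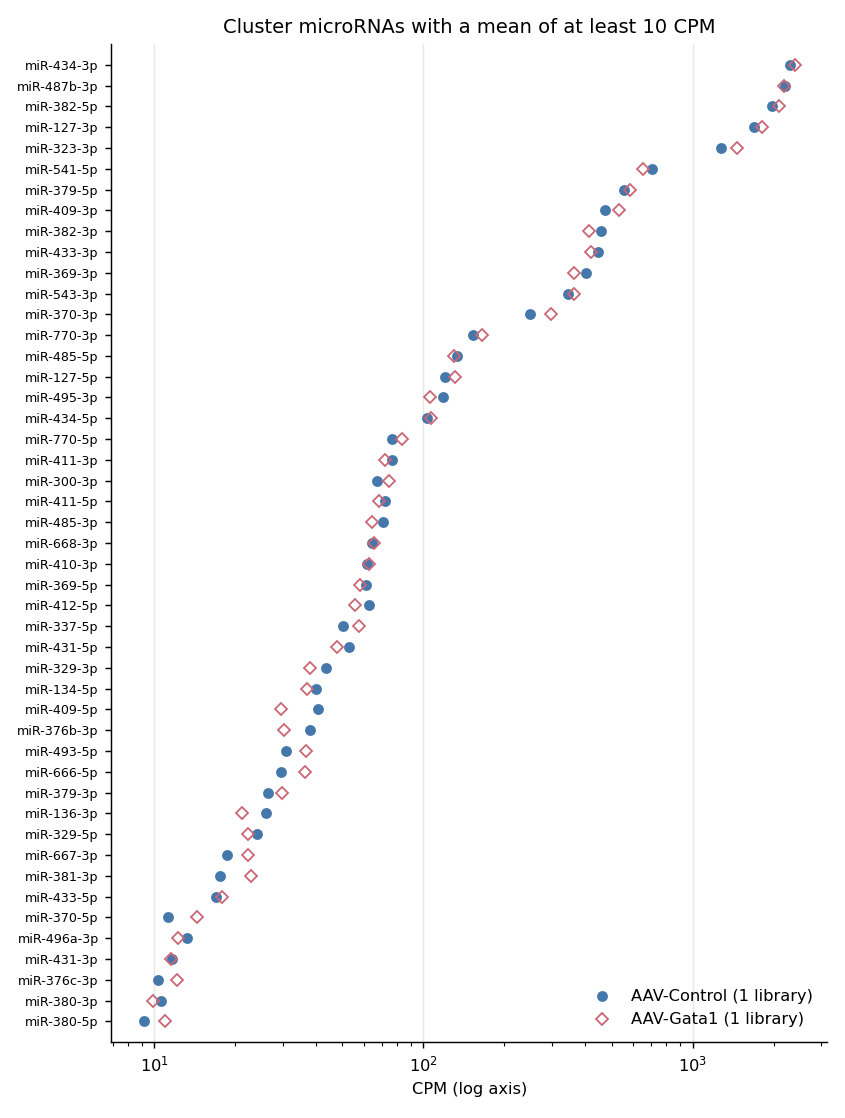
CPM (log axis) of each cluster microRNA with a mean of at least 10 CPM, 1 point per library (filled circle, AAV-Control; open diamond, AAV-Gata1), with no error bars since each condition has 1 library. The points of a microRNA lie close together over the whole range, from about 10 CPM up to the 2401.61 CPM of miR-434-3p.

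Levels differed far more between neighbouring hairpins than between libraries. The first part of the array, which holds miR-770 within Meg3 and 9 hairpins within the annotated span of Rtl1, gave 5101 and 5322 CPM, a ratio of 1.04 (34.2% and 34.4% of the cluster). The single hairpin within Rian, miR-370, gave 261 and 312 CPM, a ratio of 1.2. The 37 hairpins beyond Rian gave 9571 and 9844 CPM, a ratio of 1.03 (64.1% and 63.6%). Of these, 8 lie within the annotated span of Mirg. Hairpins next to each other could differ by orders of magnitude. miR-323 stood at 1281.05 and 1471.56 CPM, and miR-1197, 71 bases before it, at 0 and 1.03 CPM. miR-382 stood at 2425.13 and 2508.94 CPM, and miR-134, 292 bases beyond it, at 40.49 and 37.48 CPM. In the Rtl1 span, miR-434 had 2406 CPM and miR-127 1814.48 CPM in the control, while miR-136, 727 bases beyond miR-434, had 27.7 CPM and miR-665 had 5.89 CPM. At the far end, miR-409, miR-412, miR-369 and miR-410 lie within 638 bases. Their control levels were 511.75, 66.4, 462.94 and 62.95 CPM, and their Gata1 levels 560.96, 59.71, 422.17 and 67.54 CPM. Both libraries gave the same alternation of high and low.

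**Figure D2:**
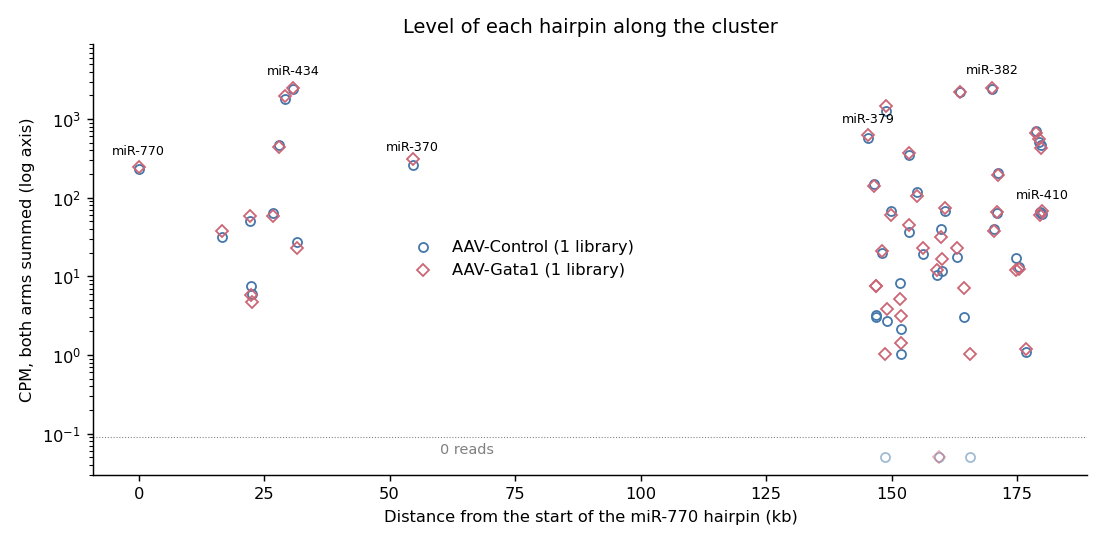
CPM of each hairpin with both arms summed (log axis) by distance in kilobases from the start of the miR-770 hairpin, 1 point per library (circle, AAV-Control; diamond, AAV-Gata1). Hairpins with no read are drawn below the dotted line. High and low hairpins alternate within both dense parts, and the symbols of the libraries mostly overlap.

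Abundant members differed little between the libraries. Across the 74 members with at least 20 reads the Pearson correlation of log2 CPM between libraries was 0.986, a description across microRNAs that share both libraries. The 18 members with a mean of at least 100 CPM had ratios (Gata1 over control) from 0.90 to 1.19, and the 119 other microRNAs at that level from 0.834 to 1.47. From 10 to 100 CPM, 29 members had ratios from 0.73 to 1.30 and 137 others from 0.656 to 1.77. Under 10 CPM, 27 members had ratios from 0.618 to 4.70. Of 233 others at that level, the 232 with reads in both libraries had ratios from 0.0589 to 8.65.

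Of the 74 members 6 (8.11%) were at least 2-fold higher in the Gata1 library, beside 6.39% of all 563 microRNAs with 20 reads. None was at least 2-fold lower, beside 4.26% of all. The median log2 ratio was 0.077 over the members and 0.052 over all 563. A ratio above 1 was seen in 45 members (60.8%) and in 56% of all. The counting interval lay above 1 for 26 members (35.1%, beside 29.8% of all) and below 1 for 14 (18.9%, beside 19.4%). This split depends on the scale. Centred on the median of all 563 microRNAs, 16 members were called higher and 17 lower, and with TMM factors, a scaling that trims extreme features, 13 and 20. No direction for the cluster as a whole is therefore given.

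The members that lie antisense to Rtl1 within its annotated span, a gene that some of them are known to silence by pairing, had ratios on both sides of 1. miR-434-3p (ratio 1.04, 1.03 to 1.06) and miR-127-3p (ratio 1.07, 1.05 to 1.09) were slightly higher (with TMM factors the first lay just below 1), and miR-433-3p, at 446.12 and 419 CPM, was slightly lower (ratio 0.939, 0.906 to 0.974). miR-431-5p stood at 52.84 and 47.53 CPM (ratio 0.900, 0.808 to 1.00) and miR-136-3p at 25.97 and 21.12 CPM (ratio 0.813, 0.694 to 0.951). miR-337-5p, at 50.22 and 57.73 CPM (ratio 1.15, 1.04 to 1.27), and miR-493-5p, at 30.83 and 36.62 CPM (ratio 1.19, 1.04 to 1.35), were higher. On the deposited scale, to which these intervals belong, the hairpins of this stretch thus did not share a direction. With TMM factors the log2 ratios were 0.027 for miR-127-3p, 0.13 for miR-337-5p and 0.18 for miR-493-5p. They were −0.16 for miR-433-3p, −0.22 for miR-431-5p and −0.37 for miR-136-3p.

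In the miR-379 to miR-410 group miR-323-3p had the largest difference among members over 1000 CPM, with a ratio of 1.15 (1.13 to 1.17). miR-487b-3p had a ratio of 0.997 (0.981 to 1.01) and miR-382-5p of 1.06 (1.05 to 1.08). miR-541-5p (ratio 0.926, 0.900 to 0.953) and miR-369-3p (ratio 0.906, 0.872 to 0.942) were lower, and miR-409-3p, from the hairpin beside miR-412, was higher at 471.26 and 531.38 CPM (ratio 1.13, 1.09 to 1.17). Below these, miR-495-3p stood at 117.77 and 105.98 CPM (ratio 0.900, 0.838 to 0.966), miR-300-3p at 67.36 and 74.18 CPM (ratio 1.1, 1.01 to 1.2) and miR-412-5p at 62.63 and 55.68 CPM (ratio 0.889, 0.806 to 0.980). The intervals of miR-134-5p (ratio 0.932, 0.825 to 1.05) and miR-485-5p (ratio 0.972, 0.910 to 1.04) include 1, and that of miR-329-3p does not (ratio 0.877, 0.779 to 0.987).

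The 6 members past 2-fold all had few reads, no more than 89 in either library. Their median over both libraries was 77.5 reads. miR-410-5p had 22 and 63 reads (1.41 and 4.98 CPM), a ratio of 3.54 (2.15 to 6.04). miR-299a-3p had 19 and 57 reads (ratio 3.71, 2.17 to 6.60) and miR-299b-3p 15 and 57 (ratio 4.70, 2.62 to 8.93). Since the sequence of miR-299b-3p lies within that of miR-299a-3p, these names largely count the same reads. miR-539-5p had 47 and 89 reads (ratio 2.34, 1.63 to 3.41). miR-543-5p had 28 and 51 (ratio 2.25, 1.39 to 3.71), and miR-487b-5p 6 and 22 (ratio 4.53, 1.78 to 13.7). The interval lay wholly above 2 for 3 of the 6, miR-410-5p and both miR-299 names (4.05% of members, beside 1.78% of all). In miR-410, miR-543 and miR-487b the arm past 2-fold was the rarer one, and the main arm stayed close: miR-410-3p stood at 61.54 and 62.56 CPM, and miR-543-3p at 345.75 and 362.06 CPM.

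Of the 14 members with 1 to 19 reads, 6 (42.9%) had reads in the Gata1 library alone, beside 30.4% of all 391 names with so few reads. None had reads in the control library alone, beside 25.8% of all. miR-1197-3p had 0 and 12 reads, 4.95-fold higher against a floor of 3 reads in the control library (lower interval limit 3.44). miR-544-5p had 0 and 10 reads, 4.12-fold higher against the same floor (lower interval limit 2.77). The other 4 had at most 3 reads.

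**Figure D3:**
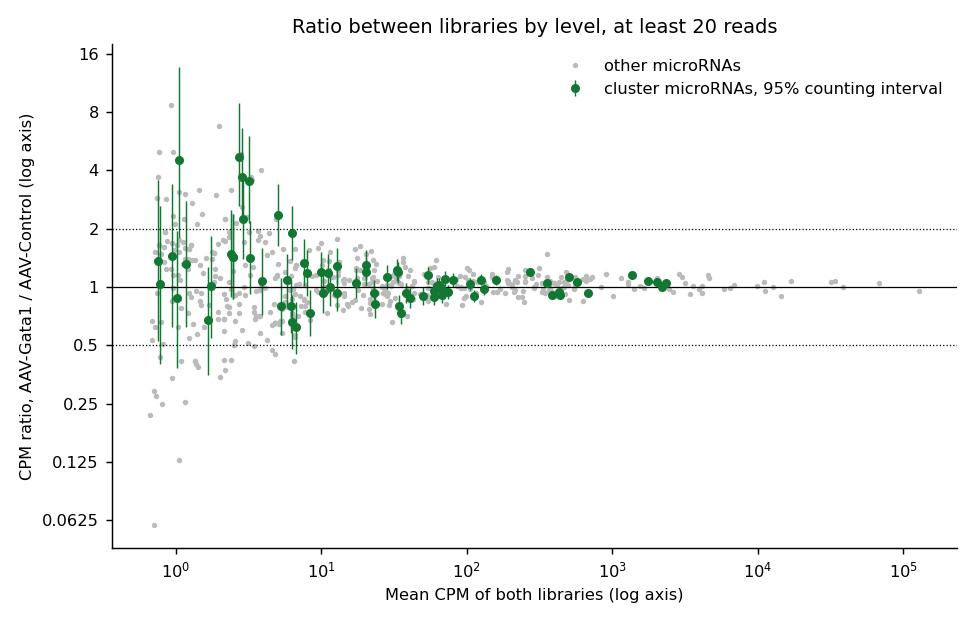
CPM ratio of AAV-Gata1 over AAV-Control (log axis) by mean CPM (log axis) for microRNAs with at least 20 reads and a read in each library. Green points are cluster members with their 95% counting interval, grey points all others, and dotted lines mark 2-fold. Ratios of members narrow around 1 as the level rises, and those past 2-fold lie under 10 CPM.

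With at least 100 reads 58 members remained, of which 1, miR-539-5p, was past 2-fold (1.72%, beside 0.758% of all microRNAs at this depth), and none was 2-fold lower (beside 1.01%). After it the highest ratios were those of miR-376a-5p (4.35 and 8.22 CPM, ratio 1.89, 1.38 to 2.61), miR-666-3p (6.52 and 8.70 CPM, ratio 1.33), miR-381-3p (17.53 and 22.86 CPM, ratio 1.30), miR-370-5p (11.26 and 14.39 CPM, ratio 1.28) and miR-666-5p (29.68 and 36.14 CPM, ratio 1.22). The lowest was miR-494-3p, at 8.32 and 5.14 CPM (ratio 0.618, 0.452 to 0.839). Both arms of miR-154 followed, the 3p arm at 7.55 and 4.98 CPM (ratio 0.660) and the 5p arm at 9.60 and 7.04 CPM (ratio 0.734), with miR-409-5p between them at 40.49 and 29.58 CPM (ratio 0.730, 0.641 to 0.831). miR-665-3p (ratio 0.793) and miR-540-3p (ratio 0.797) had intervals that include 1.

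Some neighbours with like sequences differed in direction. miR-376a and miR-376b are 241 bases apart. With both arms summed, miR-376a stood at 11.64 and 16.84 CPM (ratio 1.45, 1.18 to 1.77) and miR-376b at 39.98 and 31.79 CPM (ratio 0.795, 0.700 to 0.903). These intervals do not overlap. Most of the miR-376a difference lay in the 5p arm, while miR-376a-3p, the arm like miR-376b-3p, stood at 7.29 and 8.62 CPM with an interval that includes 1 (ratio 1.18, 0.901 to 1.55). The like pair miR-300-3p and miR-381-3p was higher in both members. miR-376c-3p, a further copy, stood at 10.30 and 12.10 CPM (ratio 1.17, 0.935 to 1.48). The neighbours miR-379 and miR-411, whose 3p arms are alike, also lay on opposite sides of 1. With both arms summed, miR-379 had a ratio of 1.06 (1.03 to 1.1) and miR-411 of 0.947 (0.889 to 1.01), again without overlap. In the like 3p arms the intervals overlapped and both included 1. miR-379-3p had a ratio of 1.12 (0.972 to 1.29) and miR-411-3p of 0.943 (0.864 to 1.03). How often other neighbouring hairpins differ in this way was not counted.

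The cluster mostly used its 3p arms. Of 41 member hairpins with at least 100 reads, 27 (65.9%) had more 3p than 5p reads in the control, while 87 of 189 other hairpins (46.0%) did. In 23 of the 41 the main arm held over 95% of the control reads, as it did in 116 of the 189 others. Among hairpins with at least 1000 reads, the 5p arm led most in miR-541, with 11078 reads against 1 in the control. It also led in miR-134 (98.1% and 98.7% of the reads), miR-337 (98.0% and 97.7%), miR-379 (95.4% and 95.2%) and miR-412 (94.3% and 93.2%). At the other end of the hairpins with at least 1000 reads, the 5p arm held 0.0174% and 0.0791% of the reads in miR-487b. It held 0.298% (0.0614 to 0.867%) and 0.6% (0.195 to 1.4%) in miR-668, and 0.434% and 0.408% in miR-323. In miR-495 it held 0.486% (0.223 to 0.921%) and 0.298% (0.0811 to 0.76%), and in miR-543 0.515% and 1.1%. Among hairpins with fewer reads, miR-376c, miR-494, miR-496a and miR-665 had no 5p read in either library, and miR-539 had no 3p read.

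In 9 member hairpins neither arm reached 75% in the control, beside 32 of 189 other hairpins. The most even was miR-411, with 48.6% 5p reads (46.5 to 50.6%) and 48.8% (46.4 to 51.1%). miR-154 had 56.0% and 58.6% and miR-380 46.3% and 52.5%. miR-485 had 65.4% and 66.9%, miR-329 35.6% and 37.0%, and miR-770 33.4% and 33.5%. The remaining 3 were miR-376a (37.4% and 48.8%), miR-299a (62.7% and 39.4%) and miR-299b (68.1% and 39.4%). The arms of miR-382 are both abundant. Its 5p arm had 1969.22 and 2095.79 CPM, and its 3p arm 455.91 and 413.15 CPM.

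Arm use differed little between the libraries in most hairpins. The median absolute difference of the 5p share was 0.523 percentage points over the 41 hairpins and 0.452 over the 189 others. Counting intervals of the libraries did not overlap in 6 hairpins (14.6%), beside 14.3% of all 230. In miR-410 the 5p share was 2.24% (1.41 to 3.37%) and 7.38% (5.71 to 9.34%). In miR-382 it was 81.2% (80.8 to 81.6%) and 83.5% (83.1 to 83.9%), and in miR-409 it was 7.91% (7.33 to 8.53%) and 5.27% (4.76 to 5.82%). The others were miR-543, miR-487b and miR-299b, which had the largest difference (68.1% and 39.4%, on few reads). The leading arm changed in 3 of the 41 hairpins, miR-299a, miR-299b and miR-380, and in 5 of the 189 others. A share within a hairpin does not depend on how the libraries were scaled.

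**Figure D4:**
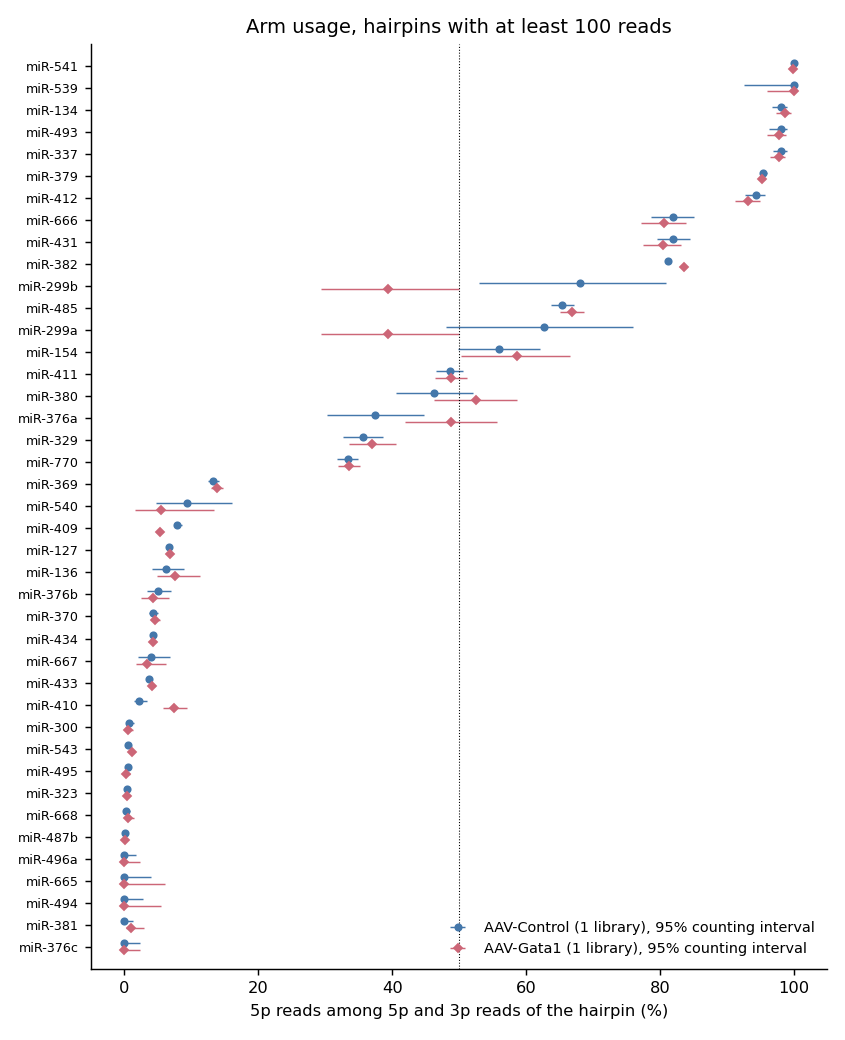
Percentage of 5p reads among the 5p and 3p reads of each member hairpin with at least 100 reads, with 95% exact counting intervals, 1 point per library (circle, AAV-Control; diamond, AAV-Gata1). Most hairpins lie near 0 or 100%, miR-411 lies near 50%, and the miR-410 points stand apart at 2.24% and 7.38%.

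The 3 long noncoding RNAs of the maternal chromosome had lower values in the AAV-Gata1 mRNA library. Meg3 stood at 126.9 and 102.1 FPKM, a log2 difference of −0.31 on the log2(FPKM + 1) scale. Of the 13740 genes compared, 2.71% were as low or lower. Rian stood at 264 and 236 FPKM (−0.16) and Mirg at 5.42 and 4.42 FPKM (−0.24). Set beside them, miR-770-3p, within Meg3, stood at 153.01 and 165.61 CPM, and miR-370-3p, within Rian, at 249.35 and 297.36 CPM (ratio 1.19, 1.14 to 1.25). Genes of the paternal chromosome were low in both libraries. Dlk1, a membrane protein gene of growth and differentiation, stood at 3.77 and 3.30 FPKM, Rtl1 at 0.267 and 0.193 FPKM, and Dio3, which encodes a thyroid hormone deiodinase, at 0.517 and 0.335 FPKM. Dio3os, beside Dio3, stood at 0.376 and 0.548 FPKM.

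Of the 12 genes in or beside the domain 9 had a mean of at least 1 FPKM. Of these 6 were lower, beside 54.7% of all genes, with a median of −0.15, beside −0.013 for all genes. Only Meg3 was at least 1.2-fold lower on this scale, beside 3.98% of all genes, and none was 1.2-fold higher, beside 3.29%. Begain stood at 10.2 and 8.98 FPKM (−0.17), Wdr25 at 2.88 and 3.15, Wars at 38.8 and 39.2, Ppp2r5c at 42.6 and 43.9 and Dync1h1 at 49.2 and 46.4 FPKM. Meg3 and Rian are also the most abundant RNAs of the list by FPKM. Cell markers were set alongside. Those of astrocytes, the most abundant, differed little (summed 1580 and 1600 FPKM, 3 of 4 higher). Of 4 neuron markers 3 were measured and all were lower (summed 375 and 363 FPKM), Map2 only slightly (240 and 236 FPKM). Of 4 markers of pericytes and fibroblasts 2 were measured. The sum of all 4 was 91.1 and 75.6 FPKM, mostly from Acta2 (76.4 and 60.7 FPKM), while Pdgfrb stood at 13.6 in both. Of 4 oligodendrocyte lineage markers 3 were lower (130 and 123 FPKM). Of 4 microglia markers 3 were measured and all were higher (Cx3cr1 at 14.6 and 18.2 FPKM). Their part in the result was not tested.

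**Figure D5:**
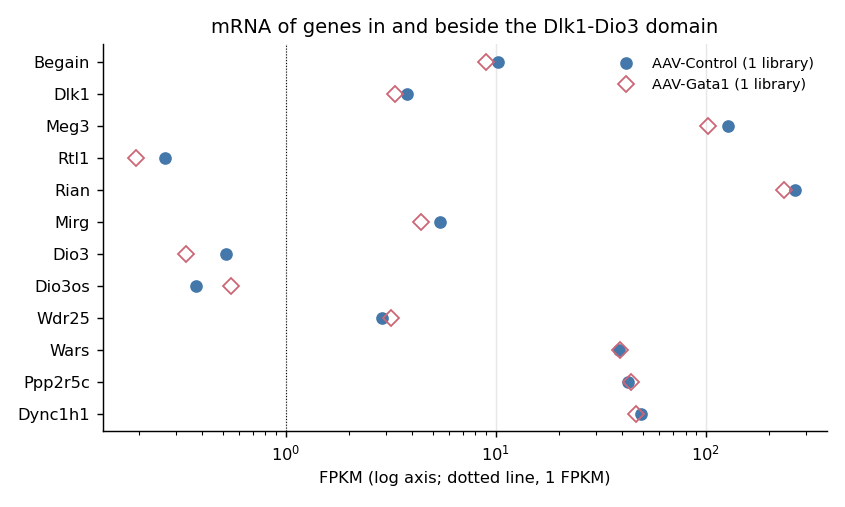
FPKM (log axis) of the 12 genes in and beside the Dlk1-Dio3 domain, 1 point per library (filled circle, AAV-Control; open diamond, AAV-Gata1), with no error bars since each condition has 1 library. Meg3, Rian and Mirg lie lower in the Gata1 library, and the outer genes Wars and Ppp2r5c overlap.

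Genes that earlier work ties to these microRNAs showed small differences. The list held targets and, as regulators of the cluster, MEF2 factors. Of 16 measured genes 12 were lower, with a median of −0.026. None was 1.2-fold apart in either direction on the log2(FPKM + 1) scale. Of all genes 54.7% were lower, the median was −0.013, and 3.98% were 1.2-fold lower and 3.29% higher. Limk1, the spine kinase gene repressed by miR-134, stood at 14.8 and 15.5 FPKM and Pum2, an RNA-binding protein gene, at 42.7 and 45.6 FPKM. Creb1 stood at 13.0 and 12.8 FPKM, Sirt1 at 8.09 and 8.39 FPKM and Dcx, a microtubule protein gene of young neurons, at 75.9 and 74.2 FPKM. Kremen1, a target of miR-431, stood at 6.95 and 6.83 FPKM. Sv2a stood at 35.8 and 30.7 FPKM (−0.22) beside miR-485-5p at 133.31 and 129.54 CPM. Of the synaptic genes tied to the miR-379 to miR-410 group, Cnih2, an AMPA receptor partner, stood at 70.9 and 61.3 FPKM (−0.21), Dlgap3 at 13.7 and 12.6, Src at 29.3 and 28.4 and Prr7 at 12.5 in both. Bdnf, a growth factor gene, stood at 1.59 and 1.98 FPKM (0.20, with an FPKM ratio of 1.24). Of the MEF2 factors, which activate the group in active neurons, Mef2d stood at 24.3 and 20.4 FPKM (−0.24), Mef2a at 21.9 and 21.6 and Mef2c at 37.1 and 35.9 FPKM.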

How the data were processed

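Small RNA and mRNA of AAV-Control and AAV-Gata1 cultures were compared, with 1 library each. The deposited small RNA values are CPM, called normalized counts per the file headers, over 2241 rows of mature microRNA and precursor. All values above 0 (100% in both libraries) were whole multiples of 1 read within 0.0055 CPM, so reads were recovered (15632553 and 12644419 over all rows). The deposited mRNA values are FPKM, per the file headers, and their depth is unknown. Tools named include TopHat2 2.1.1, Cufflinks 2.1.1, Bowtie 1.1.2, HTSeq 0.6.1p1 and edgeR 3.10.2, per the submitters' processing notes, with the builds mm9 and mm10 and no roles stated. How reads matching several microRNAs were assigned is not stated in these sources.

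Ratios used deposited CPM and at least 20 reads over both libraries. Their 95% intervals are exact (conditional binomial, SciPy 1.17.1), as are those of shares (Clopper-Pearson). Without replicates no count model was tested. Over all 563 microRNAs the interval lay above 1 for 168 and below 1 for 109. TMM factors came from edgeR 4.0.16. mRNA differences are log2((Gata1 + 1)/(control + 1)) over genes whose mean reached 1 FPKM, and this scale understates differences of low genes. The interval and the read recovery were tested on simulated data. Members, gene lists, motifs and the rule for named microRNAs were chosen with earlier results of these data known. The rule named the 12 highest members, the 6 highest and 6 lowest ratios with at least 100 reads, all past 2-fold, well-known members, and hairpins of extreme or even arm use. Some listed genes are counted in their lists but not reported here.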

Additional observations from a re-analysis of the deposited data

How the results depend on the processing

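No paired analysis was possible because each group has 1 library. The number of members at least 2-fold higher was 6 or, with a pseudocount of 1 CPM, 4 and, with no minimum, 8; it was 1 with a minimum of 100 reads. None was 2-fold lower except 1 with no minimum. The median log2 ratio of the members, 0.077, was 0.039 with a minimum of 100 reads, 0.065 with totals over 1 row per name, 0.025 centred on the median of all microRNAs, 0.01 with TMM factors, 0.07 with 1 name kept of those with the same reads and 0.071 with the pseudocount. With TMM 38 members were higher, not 45. Those turned, all with ratios near 1, were miR-434-3p (−0.0065), miR-543-3p (−0.00055), miR-434-5p, miR-668-3p, miR-410-3p, miR-136-5p and miR-667-5p. The share of the cluster, 3.02% and 3.1%, was 1.49% and 1.55% of all precursor rows, which repeat reads, 2.55% and 2.62% without miR-434-3p, and 4.10% and 4.13% without miR-9-5p in the total. With at least 1000 reads 17 of 26 hairpins had more 3p reads. The median of the domain genes was −0.16 with a pseudocount of 0.1 FPKM and −0.12 with a minimum of 5 FPKM or none. The median of the target list was −0.028 with that pseudocount and −0.031 with a minimum of 5 FPKM or none. Depth limits members under 20 reads, which entered counts of ratios only where no minimum was set.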

Other observations

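Members of low level were mostly higher in the Gata1 library. Under 10 CPM, 20 of 27 members had a ratio above 1 (median log2 ratio 0.41), and 115 of 233 other microRNAs at that level did (median −0.016). With ratios centred on the median of all microRNAs, 18 of the 27 members were above it. The 27 include 4 miR-299 names that repeat reads. With 1 library per condition the difference was not tested.

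The arms of member hairpins tended to lie on the same side. Of 19 hairpins with at least 100 reads on each arm, 8 had both arms higher and 6 both lower. Examples were miR-370 and miR-666 (both higher) and miR-154 and miR-411 (both lower). Sides were taken from the ratio alone, whether or not its interval includes 1, and both intervals of miR-411 do. In 5 the arms lay on opposite sides, among them miR-382 and miR-409. Of 77 other hairpins 35 had both arms on the same side. Centring left 13 of the 19 and 35 of the 77 on the same side.

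Another 16 mature names of the tables lie between miR-770 and miR-410 in RefSeq without matching the name rule. Of these 11 had no read. miR-341-3p stood at 49.7 and 61.9 CPM (ratio 1.25, 1.13 to 1.38), miR-1188-5p at 2.17 and 4.19 CPM and miR-673-5p at 0.70 and 2.21 CPM.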
